A study of Homo sapiens with 16 samples.

Results

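Autophagy machinery genes were examined for peaks of HDGF and INTS13 in HEK293T cells, a human embryonic kidney cell line. The set holds 38 named genes of 20037 protein-coding genes in the RefSeq gene table. They were chosen by name and not by any measured value, though earlier results of these data were known. All 38 were found in the table. A gene was counted as having a boundary peak in a list when the highest point of a deposited peak, its summit, was no more than 1 kb from one of the 2 ends of the annotated gene.

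The study mapped both proteins by chromatin immunoprecipitation and sequencing to ask whether INTS13 moves on the genome under starvation or after loss of HDGF. Of 16 samples in 8 groups of 2 replicates, 5 groups had a peak list, and the 6 input samples were not analysed here. HDGF was mapped in control cells and in cells kept in medium without glucose for 24 h, with a Proteintech antibody in both. INTS13 was mapped in control cells, in cells depleted of HDGF with siPOOLs for 72 h and in cells starved of glucose for 24 h. All cells were labelled wild type, and the control cells were those labelled as control depletion. For INTS13, starved cells were precipitated with an antibody of Proteintech and the other cells with one of Bethyl Laboratories, so antibody and starvation cannot be told apart for INTS13. Each group had 1 list for its 2 replicates, so no value had a replicate error and no difference between conditions was tested. Whether the starved cells had also received control siPOOLs is not stated in the labels.

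Autophagy encloses cytoplasm in a double membrane, the autophagosome, and delivers it to the lysosome. The ULK1 kinase complex starts the process, a class III PI3-kinase complex marks the growing membrane with PI3P, and a pair of ubiquitin-like conjugation systems attaches ATG8 proteins such as LC3 to the membrane, where cargo receptors bind them. Glucose shortage is a classical inducer of the pathway through the AMPK kinase. HDGF is a chromatin-associated protein with a PWWP domain, and INTS13 is a subunit of Integrator, the complex that cleaves nascent RNA and ends transcription by RNA polymerase II early at many genes.

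INTS13 summits fell close to the start of 4 members whose RefSeq promoter windows (250 bases before the start to 50 after it, GRCh38.p14) are printed here, because they place the peaks on the sequence. Each is written 5′ to 3′ on the strand of the gene, and the capitals mark the bases within 10 bases of an INTS13 summit, as far as the window reaches. The window of ATG3, at chr3:112561913-112562212 on the minus strand, held the summits of control and HDGF-depleted cells. That of ATG4C, at chr1:62783882-62784181 on the plus strand, held the summit of control cells. Those of SQSTM1, at chr5:179820655-179820954 on the plus strand, and BNIP3, at chr10:131981874-131982173 on the minus strand, held summits of starved cells.
ATG3: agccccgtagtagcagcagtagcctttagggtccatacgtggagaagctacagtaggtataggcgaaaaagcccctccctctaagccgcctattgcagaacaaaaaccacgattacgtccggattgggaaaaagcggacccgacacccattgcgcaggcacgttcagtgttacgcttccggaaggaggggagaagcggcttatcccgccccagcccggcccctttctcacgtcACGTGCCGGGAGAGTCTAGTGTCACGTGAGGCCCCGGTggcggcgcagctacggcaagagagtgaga
ATG4C: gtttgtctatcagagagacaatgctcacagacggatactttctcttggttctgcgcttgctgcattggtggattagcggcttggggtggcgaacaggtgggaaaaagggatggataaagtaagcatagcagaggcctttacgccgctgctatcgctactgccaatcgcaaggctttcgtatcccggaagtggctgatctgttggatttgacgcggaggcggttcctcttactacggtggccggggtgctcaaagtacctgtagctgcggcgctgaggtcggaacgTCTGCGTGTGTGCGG
SQSTM1: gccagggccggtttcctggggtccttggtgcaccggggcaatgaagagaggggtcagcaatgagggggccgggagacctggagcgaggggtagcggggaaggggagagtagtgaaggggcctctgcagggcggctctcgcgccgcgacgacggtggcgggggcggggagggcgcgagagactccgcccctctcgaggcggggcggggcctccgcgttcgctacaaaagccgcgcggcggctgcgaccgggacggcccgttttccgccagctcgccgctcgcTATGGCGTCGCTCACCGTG
BNIP3: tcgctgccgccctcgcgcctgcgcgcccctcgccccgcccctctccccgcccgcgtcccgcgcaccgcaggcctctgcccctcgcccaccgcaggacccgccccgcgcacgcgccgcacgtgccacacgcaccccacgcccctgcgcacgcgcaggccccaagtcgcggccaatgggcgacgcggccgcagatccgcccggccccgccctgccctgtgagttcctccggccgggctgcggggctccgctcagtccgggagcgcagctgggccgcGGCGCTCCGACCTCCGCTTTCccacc
The GC content was 59.0% for ATG3, 55.0% for ATG4C, 73.0% for SQSTM1 and 80.7% for BNIP3, against a median of 58.7% over all 34943 windows of the table. The ATG3 window differed from the other 3 in holding a pair of E-boxes, CACGTG, the core of the CLEAR element that the lysosome and autophagy regulator TFEB binds. One lay 18 to 13 bases before the start and the other 5 to 10 bases after it, counting the start base as 0, and the INTS13 summits of control and HDGF-depleted cells were 7 bases before and 10 bases after that start. BNIP3 held 1 E-box, 134 to 129 bases before its start, and ATG4C and SQSTM1 held none. The motif reads the same on both strands.

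Of the 38 members, 34 had a promoter window, with 42 windows in all, and 3 of these windows held the E-box, those of ATG3, BNIP3 and ATG14. Of all windows, 7.23% held it. Among windows with a summit inside, the share with an E-box was 25.9% of 282 for INTS13 in control cells, 19.1% of 780 after HDGF depletion and 11.8% of 519 in starvation, and 5.42% of 332 and 9.34% of 814 for HDGF in control and starved cells. These windows also differed in base composition, with a median GC content of 62.7%, 60.0%, 69.0%, 51.5% and 63.7% in the same order, and the part of GC content in these shares was not tested. The GC box GGGCGG, searched on both strands, was in 28 of the 42 member windows and in 44.9% of all windows. The ETS core CCGGAA was in 15 of 42 and in 17.2%, and CCAAT in 13 of 42 and in 34.6%. The NRF1 motif GCGCATGC and the CRE TGACGTCA were in 1 member window each, MAP1LC3B and GABARAPL1, and in 3.02% and 1.84% of all windows. The motifs were chosen after the peaks had been seen, windows of neighbouring genes can overlap, and a match is a description of letters and not a bound site.

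Peak lists differed several-fold in length. HDGF had 106674 peaks on the assembled chromosomes in control cells and 68138 in starvation, and INTS13 had 31233, 105994 and 15639 in control, HDGF-depleted and starved cells. Depth was not given, but the background at a summit, recovered from the deposited fold and p-values, was 4.20 to 15.2 reads, and the weakest listed summits stood on 12 to 40 reads. Intervals on reads below are exact Poisson 95% intervals, which cover counting error only. The fold at a summit is the authors' value of reads over background and is used here to describe and rank peaks within a list. Peaks do not measure expression, so the cell type could not be checked through its markers, and genes that mark other tissues were counted for comparison. Of 21 such genes, HDGF had a boundary peak at 5 in control cells (23.8%, against 19.3% of all genes) and 7 in starvation (33.3%, against 21.7%). INTS13 had one at 2 in control cells (9.52%, against 4.77%), 10 after HDGF depletion (47.6%, against 19.1%) and 2 in starvation (9.52%, against 6.71%). In 4 of the 5 lists the share of these tissue markers was higher than that of the autophagy genes given next, the exception being HDGF in control cells.

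HDGF had a boundary peak at 14 of the 38 autophagy genes (36.8%) in control cells, against 19.3% of all protein-coding genes. In starved cells it was listed at 7 (18.4%), against 21.7%. INTS13 was listed at 2 members (5.26%) in control cells, ATG3 and ATG4C, against 4.77% of all genes. After HDGF depletion it was listed at 10 (26.3%), against 19.1%, and in starved cells at 2 (5.26%), ATG4D and BNIP3, against 6.71%. The HDGF share in control cells stood furthest above the background of its list, and the INTS13 shares in control and starved cells were near theirs.

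How far the HDGF count of control cells stood above its background varied with the window and the peaks used. Within 500 bp of an end it was 4 members (10.5%, against 10.6% of all genes), and within 2500 bp it was 20 (52.6%, against 35.6%). Keeping peaks whose −log10 q reached 3, it was 5 (13.2%, against 9.43%). With each list limited to about its 15639 strongest peaks, 1 member was left (2.63%, against 3.82%). At that length HDGF in starvation was at 3 members (7.89%, against 7.68%), and INTS13 was at 1 in control cells (2.63%, against 2.79%), 3 after HDGF depletion (7.89%, against 4.59%) and 2 in starvation (5.26%, against 6.71%).

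**Figure D1:**
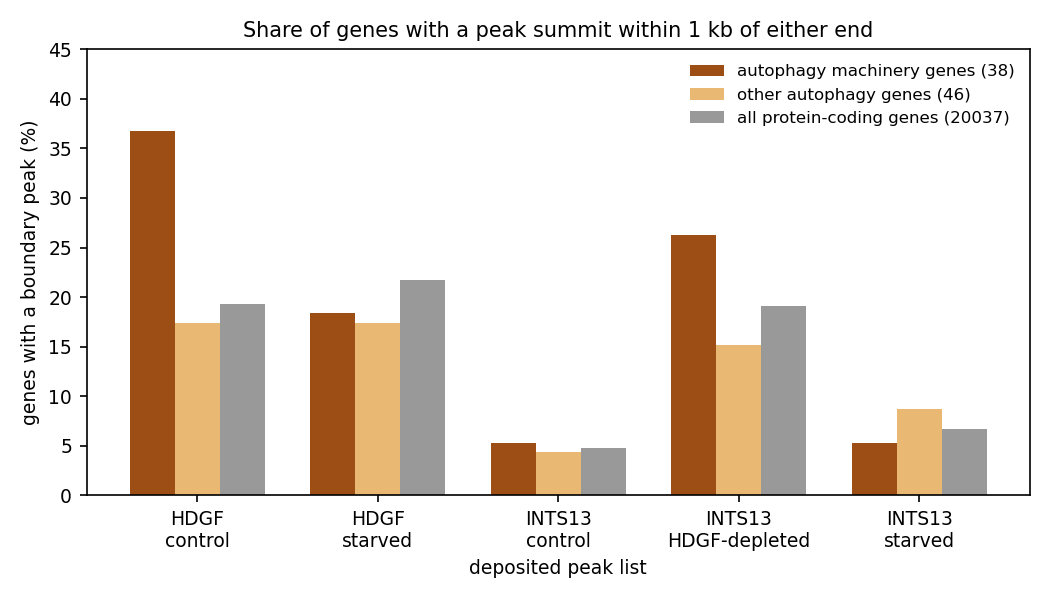
Bars give the percentage of genes with a peak summit within 1 kb of either gene end (vertical axis) in each of the 5 deposited lists, for the autophagy machinery genes, the other autophagy genes and all protein-coding genes. The autophagy bar stands well above the grey one for HDGF in control cells (36.8% against 19.3%) and close to it for INTS13 in control cells (5.26% against 4.77%), and there are no error bars because each group has 1 list.

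Across the 5 lists, 22 of the 38 members (57.9%) had a boundary peak in at least 1, against 38.6% of all protein-coding genes. ATG4C was in 4 lists, where 2.41% of all genes were, and ATG3 and ATG4D were in 3 (5.26%, against 5.13%). ATG2A, ATG4A, ATG7, ATG9A, BECN1 and SQSTM1 were in 2 (15.8%, against 9.78%). A further 13 members were in 1 list (34.2%, against 19.9%), 16 were in none (42.1%, against 61.4%) and no member was in all 5, where 1.42% of all genes were. The 3 members found in 3 or more lists all belong to the group of 5 genes that process LC3 and attach it to the membrane.

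**Figure D2:**
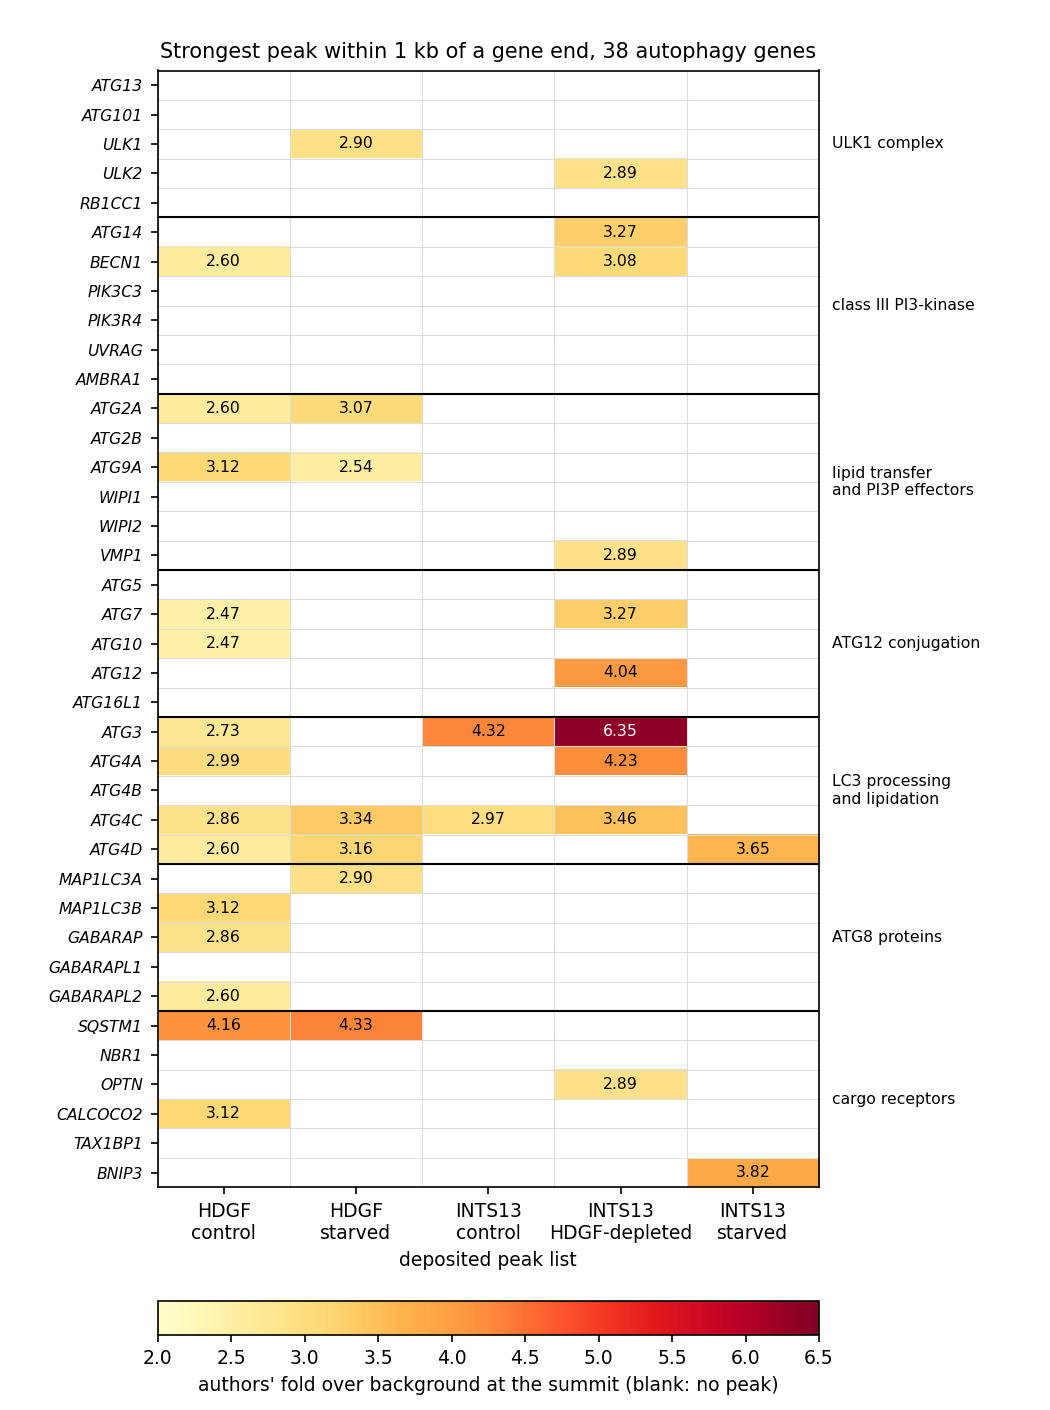
Each coloured cell gives the authors' fold over background of the strongest boundary peak of 1 autophagy gene (vertical axis, grouped by role) in 1 deposited list (horizontal axis), and blank cells had none. ATG3 with INTS13 after HDGF depletion is the highest at 6.35, and the LC3 processing genes fill more cells than any other group.

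In the ULK1 complex, HDGF was at no member in control cells and at 1 of 5 in starvation. That member was ULK1, the kinase itself, with a summit 588 bp inside its 3′ end in starved cells (fold 2.90, 31 reads, 21.1 to 44.0). Inside the body of ULK1 the HDGF list held 2 summits in control cells and 18 in starvation, while the surrounding region went from 16.5 to 59.3 peaks per Mb. No summit of INTS13 lay inside ULK1 in any of the 3 lists. The related kinase ULK2 had 1 INTS13 summit, 971 bp upstream of its start after HDGF depletion (fold 2.89, 14 reads), which is among the weaker peaks of its list, 76.8% of which were stronger. The regulatory subunits had none. ATG13 had its nearest HDGF summits 1250 and 1224 bp from an end in control and starved cells, ATG101 had them at 4573 and 1009 bp, and RB1CC1, the scaffold of the complex, at 2565 and 1429359 bp.

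The class III PI3-kinase group of 6 had HDGF at 1 member in control cells and at none in starvation, and INTS13 at 2 members after HDGF depletion and at none otherwise. BECN1, the core scaffold of the complex, had HDGF summits 990 bp inside its 5′ end (fold 2.60) and 522 bp beyond its 3′ end (fold 2.34) in control cells, on 19 and 17 reads. After HDGF depletion it had an INTS13 summit 819 bp upstream (fold 3.08, 15 reads). The 2 proteins were thus listed on either side of the BECN1 start in different cells, with no peak of one over the other. ATG14, which brings the complex to sites of autophagosome formation, had INTS13 385 bp inside its 5′ end after HDGF depletion (fold 3.27, 16 reads), and its window holds an E-box 21 to 16 bases before the start. PIK3C3, the catalytic subunit, lay in a region without peaks: its nearest summit in any list was 904450 bp away. PIK3R4 had its nearest summit at 11383 bp, UVRAG at 1508 bp and AMBRA1 at 5178 bp. AMBRA1, a regulator of BECN1, had 20 HDGF summits in its body in control cells and 3 in starvation, without any at an end.

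Of the 6 genes for lipid transfer and PI3P binding, HDGF was at 2 in both conditions, ATG2A and ATG9A, a lipid transfer protein and the scramblase that works with it. At both genes the peak stood at opposite ends in the 2 conditions. In control cells the ATG2A summit was 899 bp upstream of the start (fold 2.60, 19 reads), near an end of PPP2R5B, and in starvation it was 754 bp inside the 3′ end (fold 3.07, 33 reads), 22808 bp away. At ATG9A it was 698 bp inside the 5′ end in control cells (fold 3.12, 23 reads), near ANKZF1, and 575 bp beyond the 3′ end in starvation (fold 2.54, 27 reads), near ABCB6. VMP1, an endoplasmic reticulum scramblase, had INTS13 203 bp beyond its 3′ end after HDGF depletion (fold 2.89, 14 reads). Its body held 18 HDGF summits in control cells and none in starvation, and the region around it went from 86.4 to 6.17 peaks per Mb. ATG2B, WIPI1 and WIPI2 had no boundary peak, with nearest summits at 18697, 7524 and 1201 bp.

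Among the 5 genes of ATG12 conjugation, HDGF was at ATG7 and ATG10 in control cells and at none in starvation, and INTS13 was at ATG7 and ATG12 after HDGF depletion alone. ATG7 is the E1-like enzyme that both conjugation systems share. It had HDGF 473 bp upstream of its start in control cells (fold 2.47, 18 reads) and INTS13 358 bp inside it after HDGF depletion (fold 3.27, 16 reads). The body of ATG7 had no INTS13 summit in control cells and 35 after HDGF depletion, while its region went from 3.83 to 77.5 peaks per Mb. The 35 are the most of any member in that list, but ATG7 is 303957 bp long. Per 100 kb of gene it had 11.5, below SQSTM1 with 34.7 and ATG4A with 27.3. ATG10, the E2-like enzyme for ATG12, had HDGF 874 bp upstream (fold 2.47, 18 reads). ATG12, the ubiquitin-like protein itself, had INTS13 86 bp inside its 5′ end (fold 4.04, 20 reads, 12.2 to 30.9), where 7.12% of the list was stronger. This ATG12 peak stood apart from its surroundings, which held 2.96 peaks per Mb in that list and none in the INTS13 lists of control and starved cells. AP3S1 has an end within 1 kb of the same summit. ATG5 and ATG16L1, the partners of ATG12 in its conjugate, had nearest summits at 33600 and 5926 bp.

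LC3 processing and lipidation was the group with the most boundary peaks. HDGF was at 4 of its 5 members in control cells and 2 in starvation, against 19.3% and 21.7% of all genes. INTS13 was at 2 in control cells, 3 after HDGF depletion and 1 in starvation, against 4.77%, 19.1% and 6.71%. Of the 4 with HDGF in control cells, only ATG4A stayed within 500 bp or with a −log10 q of at least 3. With equal list lengths none did. The part of regional peak density in this ranking was not tested. ATG3 is the E2-like enzyme that attaches LC3 to phosphatidylethanolamine. INTS13 peaked 7 bp upstream of its start in control cells (fold 4.32, −log10 q 8.16, 31 reads, 21.1 to 44.0) and 10 bp inside it after HDGF depletion (fold 6.35, −log10 q 13.4, 32 reads, 21.9 to 45.2). In control cells 3.44% of the list was stronger, and after HDGF depletion 0.202% was. The nearest INTS13 summit of starved cells was 429072 bp from the gene. The region around ATG3 held 1.94 INTS13 peaks per Mb in control cells and 28.2 after HDGF depletion, against medians over all genes of 0.957 and 23.5. HDGF had no peak at the ATG3 start, and its only boundary summit was 715 bp beyond the 3′ end in control cells (fold 2.73, 20 reads). SLC35A5 has an end within 1 kb of the INTS13 summits, which therefore cannot be assigned to ATG3 alone.

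The ATG4 proteases, which trim LC3 before its lipidation and release it afterwards, showed 4 different patterns. ATG4C had INTS13 45 bp inside its start in control cells (fold 2.97, 21 reads) and 86 bp inside it after HDGF depletion (fold 3.46, 17 reads), with overlapping peaks and none at an end in starvation. HDGF stood 802 bp inside (fold 2.86) and 820 bp beyond (fold 2.60) the 3′ end of ATG4C in control cells and 474 bp inside the 5′ end in starvation (fold 3.34, 36 reads). ATG4C lies in a region dense with peaks: HDGF in control cells had 55 summits inside the gene and 463 peaks per Mb around it, and INTS13 had 104 per Mb in control cells and 298 after HDGF depletion. On chromosome 1, which carries ATG4C, 16.1% of genes had an INTS13 boundary peak in control cells, against 3.10% on chromosome 3, which carries ATG3.

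ATG4A had HDGF at 3 summits around its 5′ end in control cells, 802 bp upstream (fold 2.60) and 221 bp (fold 2.34) and 772 bp (fold 2.99) inside. After HDGF depletion it had INTS13 809 bp inside the same end (fold 4.23, 21 reads, 13.0 to 32.1), where 4.58% of the list was stronger, and 651 bp inside its 3′ end (fold 3.46, 17 reads). The ATG4A peaks of HDGF in control cells and of INTS13 after HDGF depletion overlapped, with summits 37 bp apart. Its region was also dense, with 305 INTS13 peaks per Mb after HDGF depletion. The start that RefSeq lists for ATG4A lies 2949 bp inside the annotated end, and there HDGF in starved cells had a summit 322 bp upstream (fold 2.63) and INTS13 after HDGF depletion one 514 bp upstream (fold 3.08), near an end of PSMD10.

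ATG4D, for which the promoter table gives no strand, had HDGF in both conditions at its upper end. The summits were 919 bp inside (fold 2.60) and 773 bp beyond (fold 2.34) in control cells, and 922 bp inside (fold 2.81), 453 bp inside (fold 2.81) and 430 bp beyond (fold 3.16) in starvation. The closest pair was 3 bp apart, so HDGF was listed at the same place in both conditions. KRI1 and MIR1238 have ends nearby. INTS13 was at the other end of ATG4D, 51 bp inside the lower end, in starved cells (fold 3.65, 61 reads, 46.7 to 78.4), where 9.24% of the list was stronger. ATG4B had no boundary peak and its nearest summit was at 2276 bp.

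Of the 5 ATG8 proteins, HDGF was at 3 in control cells (against 19.3% of all genes) and at a different one in starvation (against 21.7%). INTS13 was at none in any list, against 4.77% to 19.1% of all genes. The control summits were 639 bp inside the 3′ end of MAP1LC3B, the LC3 protein most used as an autophagosome marker (fold 3.12, 23 reads), 695 bp inside that of GABARAP (fold 2.86, 21 reads) and 56 bp inside that of GABARAPL2 (fold 2.60, 19 reads). All 3 were at 3′ ends. MAP1LC3A, another LC3 protein, had HDGF 454 bp inside (fold 2.54) and 709 bp beyond (fold 2.90) its upper end in starvation, near an end of PIGU. GABARAPL1 had none and its nearest summit was at 2971 bp.

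Cargo receptors had HDGF at 2 of 6 members in control cells, SQSTM1 and CALCOCO2, and at SQSTM1 in starvation. SQSTM1, the p62 protein that binds ubiquitinated cargo and LC3, had the strongest HDGF boundary peaks of all members. In control cells they lay 956 bp upstream of the start (fold 2.73, 20 reads) and 399 bp inside the 3′ end (fold 4.16, 31 reads, 21.1 to 44.0). In starvation they lay 832 bp upstream (fold 4.33, 47 reads, 34.5 to 62.5) and 150 bp inside the 3′ end (fold 3.88, 42 reads). The 3′ peak of control cells and the 5′ peak of starved cells were each near the top of their list, with 1.46% and 1.06% stronger, and MRNIP has an end near the 3′ peaks. The region around SQSTM1 held 269 HDGF peaks per Mb in control cells and 253 in starvation, with 19 and 17 summits inside the gene.

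SQSTM1 also had an INTS13 peak that the rule on gene ends did not count. In starved cells a summit lay 41 bp inside the RefSeq start shown above, which is 14512 bp inside the annotated gene, with a peak at chr5:179820799-179821123 (fold 3.47, 58 reads, 44.0 to 75.0) and 11.2% of the list stronger. No INTS13 peak of control or HDGF-depleted cells overlapped it. A second listed SQSTM1 start, 616 bp inside the gene, had an INTS13 summit 458 bp further in, also in starved cells (fold 3.18, 53 reads), near an end of MGAT4B. The SQSTM1 region was the densest among the members for INTS13 in starvation, at 54.3 peaks per Mb.

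BNIP3, a mitophagy receptor known as a hypoxia-induced gene, had INTS13 34 bp inside its start in starved cells (fold 3.82, −log10 q 6.69, 64 reads, 49.3 to 81.7), where 6.09% of the list was stronger. It had no boundary peak in any other list, and the nearest INTS13 summits were at 161104 bp in control cells and 3540 bp after HDGF depletion. The region around BNIP3 was dense in starved cells, with 23.7 INTS13 peaks per Mb against a median of 0.911 over all genes. It held 0.986 in control cells and 68.0 after HDGF depletion, against 0.957 and 23.5. OPTN had INTS13 764 bp inside its 5′ end after HDGF depletion (fold 2.89, 14 reads), near an end of CCDC3. CALCOCO2, the NDP52 receptor, had HDGF 726 bp inside its 5′ end in control cells (fold 3.12, 23 reads) and one just outside the limit, at 1163 bp, in starvation (fold 2.72). NBR1 and TAX1BP1 had no boundary peak, with nearest summits at 2056 and 9260 bp.

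**Figure D3:**
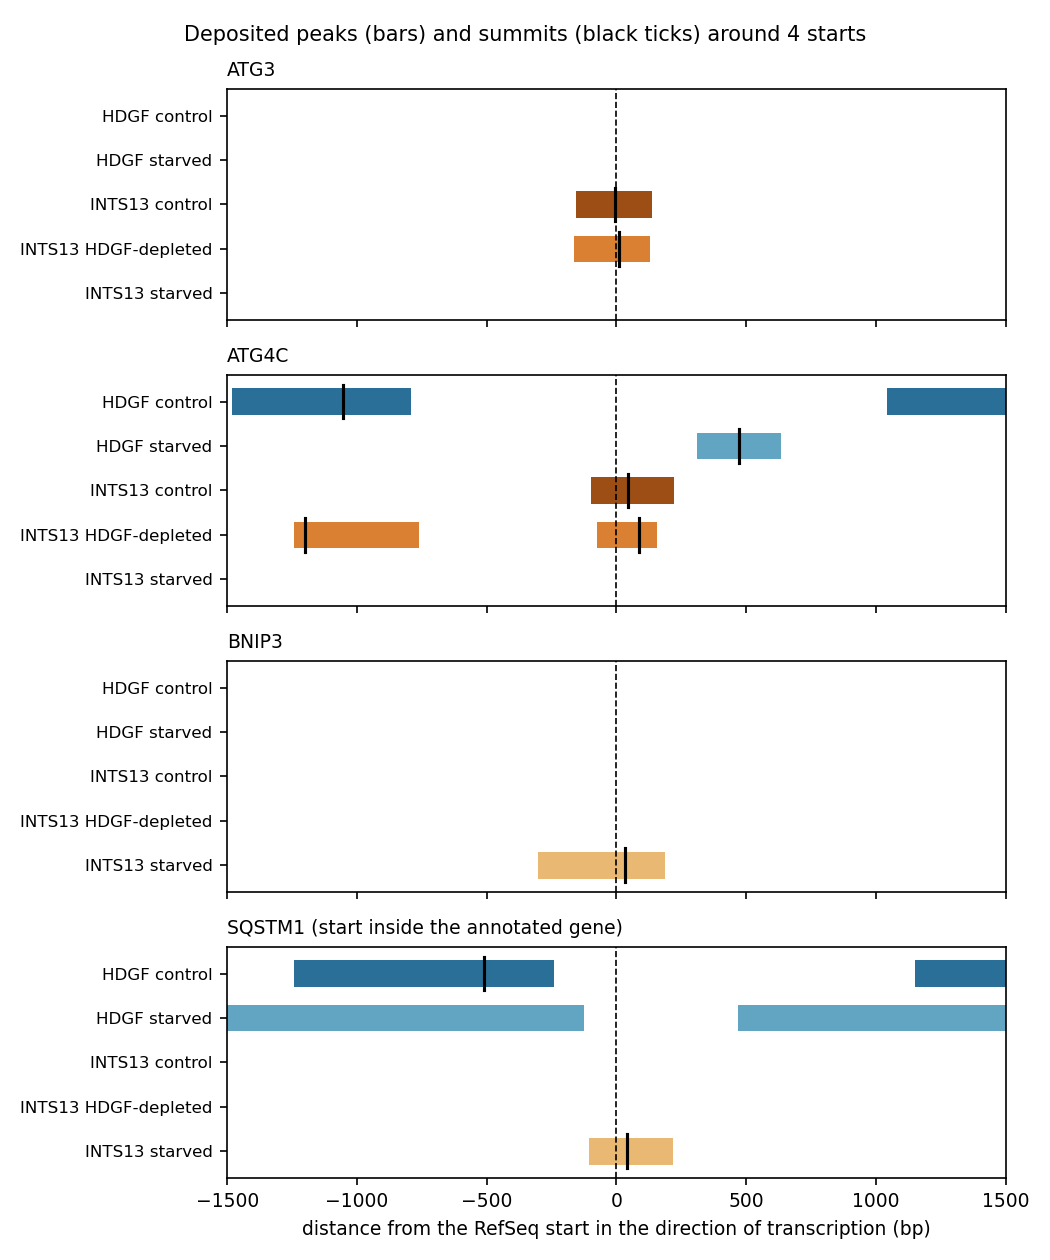
Bars show deposited peaks and black ticks their summits within 1500 bp of 4 RefSeq starts (horizontal axis, distance in bp in the direction of transcription), with 1 line for each of the 5 lists. INTS13 bars cross the start of ATG3 and ATG4C in control and HDGF-depleted cells, and those of BNIP3 and SQSTM1 in starved cells, while the HDGF bars drawn lie to the sides.

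The comparison of HDGF in starved with control cells gives the members listed in each condition. Of the 14 members with HDGF in control cells, 5 also had it in starvation, ATG2A, ATG4C, ATG4D, ATG9A and SQSTM1, and over all genes 52.5% of those with HDGF in control cells did. The 5 are 13.2% of the members, against 10.1% of all genes. HDGF was listed in control cells alone at 9 members (23.7%), ATG3, ATG4A, ATG7, ATG10, BECN1, MAP1LC3B, GABARAP, GABARAPL2 and CALCOCO2, against 9.18% of all genes. It was listed in starvation alone at 2 (5.26%), ULK1 and MAP1LC3A, against 11.5%, and in neither at 22 (57.9%), against 69.2%. By overlap of the peaks themselves, 2 of the 5 shared a position, ATG4D and SQSTM1, with closest summits 3 and 124 bp apart. SQSTM1 was the one member listed in both conditions also with a window of 500 bp, with equal list lengths, with a −log10 q of at least 3 and with starts alone. With a window of 2500 bp the count was 12. The HDGF list held 106674 peaks in control cells and 68138 in starvation, and the part of list length in the 9 genes was not tested. Within 500 bp HDGF was at 4 members in each condition. With the q limit it was at 5 in control cells and 6 in starvation, and with equal list lengths at 1 and 3.

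For INTS13 after HDGF depletion against control, the question was whether loss of HDGF goes with a change in INTS13 position. Both members with INTS13 in control cells, ATG3 and ATG4C, had it after depletion as well (5.26% of the members, against 3.88% of all genes), as did 81.3% of all genes with INTS13 in control cells. The peaks of the 2 lists overlapped at both, with summits 17 and 41 bp apart. None was lost, against 0.893% of all genes. INTS13 was listed after HDGF depletion alone at 8 members (21.1%), ATG4A, ATG7, ATG12, ATG14, ULK2, BECN1, OPTN and VMP1, against 15.2%, and in neither list at 28 (73.7%), against 80.0%. Folds at these 8 ran from 2.89 to 4.23 on 14 to 21 reads. The HDGF-depleted list held 105994 peaks against 31233 in control cells, and the part of list length in the 8 genes was not tested. With equal list lengths 3 members had INTS13 after HDGF depletion and ATG3 was the 1 listed in both.

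INTS13 in starved cells against control shares the control list with the comparison above. It was at different members in the 2 conditions: ATG3 and ATG4C in control cells alone (5.26%, against 2.22% of all genes) and ATG4D and BNIP3 in starvation alone (5.26%, against 4.16%), with none in both (against 2.56%) and 34 (89.5%) in neither (against 91.1%). Over all genes, 53.6% of those with INTS13 in control cells had it in starvation. The weakest summits of the starved list stood on 40 reads over a background of 15.2, and those of the control list on 17 over 6.40. Antibody differed as well, so folds of the 2 lists cannot be set against each other. Why ATG3 and ATG4C were not listed in starvation was not tested.

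HDGF and INTS13 were listed together at 2 members in control cells, ATG3 and ATG4C (5.26%, against 2.98% of all genes), and at 1 in starvation, ATG4D (2.63%, against 4.40%). In all 3 genes they stood at opposite ends, with the closest summits 30174 bp apart at ATG3, 80537 bp at ATG4C and 8541 bp at ATG4D. No boundary peak of one protein overlapped one of the other at these 3 members in the same condition. Neither arrangement was counted over all genes. Over all genes with a boundary peak and a known strand, the nearest INTS13 summit was at the 5′ end in 66.0% in control cells and 78.0% in starvation. For HDGF these shares were 35.9% and 45.7%. HDGF alone was at 12 members in control cells (31.6%, against 16.3%), INTS13 alone at none (against 1.79%) and neither at 24 (63.2%, against 78.9%). In starvation HDGF alone was at 6 (15.8%, against 17.3%), INTS13 alone at BNIP3 (2.63%, against 2.32%) and neither at 30 (78.9%, against 76.0%). Of all genes with HDGF, 15.5% had INTS13 as well in control cells and 20.3% in starvation, and among the members these were 2 of 14 and 1 of 7.

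Among members with a boundary peak, INTS13 summits lay nearer the gene ends than HDGF summits in control and starved cells. INTS13 had 2 such members in each condition, too few to judge this for the members as a set. The medians over all genes, given next, stood in the same order. The nearest boundary summit was at a median of 696 bp from a gene end for HDGF in control cells (56 to 899 bp, 14 members), against 448 bp over all genes with a boundary peak, and at 474 bp in starvation (150 to 754 bp, 7 members), against 396 bp. For INTS13 it was 26.0 bp in control cells (7 and 45 bp), 372 bp after HDGF depletion (10 to 971 bp, 10 members) and 42.5 bp in starvation (34 and 51 bp), against 282, 386 and 210 bp over all genes. Within 250 bp were 2 of 14 and 1 of 7 members for HDGF, against 28.7% and 32.1% of all genes, and 2 of 2, 4 of 10 and 2 of 2 for INTS13, against 47.0%, 35.2% and 55.3%. Where the strand was known, the nearest summit was at the 5′ end in 6 of 13 and 1 of 5 members for HDGF and in 2 of 2, 8 of 10 and 1 of 1 for INTS13. Over all genes these shares were 35.9%, 45.7%, 66.0%, 58.6% and 78.0%. Members just inside the limit of 1 kb were ULK2 at 971 bp, ATG2A at 899 bp and ATG10 at 874 bp, and just outside it were ATG101 at 1009 bp (HDGF in starvation), GABARAP at 1014 bp (INTS13 after HDGF depletion) and SQSTM1 at 1074 bp (INTS13 in starvation).

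**Figure D4:**
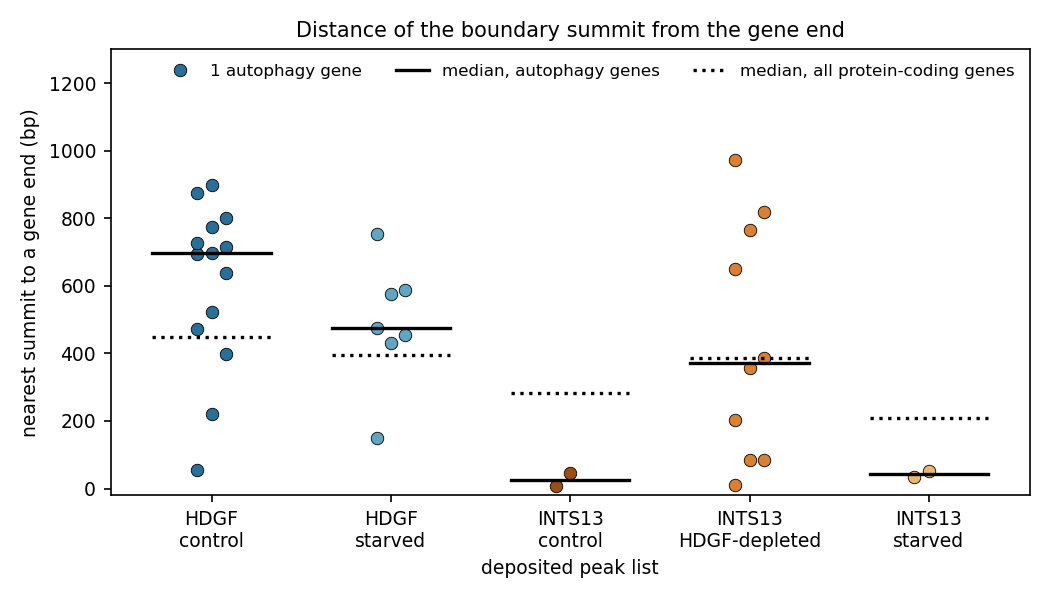
Each point is the distance in bp (vertical axis) from a gene end to the nearest boundary summit of 1 autophagy gene in 1 deposited list, with solid lines at the median of the points and dotted lines at the median of all protein-coding genes with a boundary peak. HDGF points in control cells lie mostly above 400 bp, with a median of 696, and the 2 INTS13 points each in control and starved cells lie at 51 bp or less.

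Within the lists, the strongest boundary peaks of the members were ordinary for HDGF, with a median fold of 2.80 in control cells and 3.07 in starvation against 2.86 and 2.98 over all genes with a boundary peak. For INTS13 the medians were 3.65, 3.27 and 3.73 in control, HDGF-depleted and starved cells, against 3.24, 3.27 and 3.18, and the first and last rest on 2 genes each.

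Many members had HDGF summits inside the gene. With none at an end, these were 18 of 38 (47.4%) in control cells and 9 (23.7%) in starvation, from lists of 106674 and 68138 peaks. This class was not counted over all genes, so the 2 counts cannot be set against a background. Near an end or not, 31 members (81.6%) had at least 1 summit inside in control cells, against 45.1% of all genes. In starvation 15 (39.5%) did, against 37.2%. For INTS13 the counts were 3 (7.89%, against 11.4%), 22 (57.9%, against 45.4%) and 6 (15.8%, against 9.79%) in control, HDGF-depleted and starved cells. Members are longer than most genes, with a median of 39.8 kb against 24.1 kb, and per 100 kb of gene HDGF had 8.36 summits in control cells against 5.89 over all genes, and 3.57 against 3.49 in starvation. INTS13 had 0.516, 4.38 and 0.442 per 100 kb against 1.03, 4.46 and 0.556. Of the 227 HDGF summits inside members in control cells, ATG4C held 55, ATG7 24, AMBRA1 20, SQSTM1 19 and VMP1 18, so a few genes carried most of them. In starvation the total was 97, led by ATG7 and ULK1 with 18 each and SQSTM1 with 17.

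Further autophagy genes had HDGF at a share near the background. Of 46 further autophagy genes, HDGF was at 8 (17.4%, against 19.3% of all genes) in control cells and 8 (17.4%, against 21.7%) in starvation. INTS13 was at 2 in control cells (4.35%, against 4.77%), 7 after HDGF depletion (15.2%, against 19.1%) and 4 in starvation (8.70%, against 6.71%). HDGF was listed in both conditions at 4 of the 46 (8.70%, against 10.1% of all genes) and in control cells alone at 4 (8.70%, against 9.18%). It was listed in starvation alone at 4 (8.70%, against 11.5%), among these TFEB, the transcription factor of lysosome and autophagy genes. INTS13 was kept after HDGF depletion at MAP1LC3C and VPS33A (4.35%, against 3.88% of all genes). It was listed after depletion alone at 5 (10.9%, against 15.2%), ATG9B, SEC62, TEX264, TFEB and DEPP1. A set of 12 genes of the AMPK and mTOR pathways, upstream of the ULK1 complex, was also counted. Among them HDGF was at 7 in control cells (58.3%, against 19.3% of all genes) and at 6 of 12 in starvation (against 21.7%). These shares were above those of the machinery genes in the same lists. INTS13 was at 2 of the 12 in control cells (16.7%, against 4.77%), 5 after HDGF depletion (41.7%, against 19.1%) and 2 in starvation (16.7%, against 6.71%).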

How the data were processed

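Peaks were analysed from 5 lists that the authors deposited, 1 per immunoprecipitation group on hg38. FastQC, Trimmomatic, Bowtie, Picard and MACS2 are named in the submitters' processing notes. Reads were 150 bp paired-end per the labels, and the peak names hold the value 0.05. For tool versions, further settings and the handling of replicates and inputs in peak calling, nothing is stated in these sources. A deposited peak has a position, a score, a fold over background as a ratio, a −log10 p and a −log10 q, and the offset of its summit. Peaks on chromosomes other than 1 to 22, X and Y were left out (7 to 30 per list).

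Summits were placed against the ends of 20037 protein-coding genes of the RefSeq table (GRCh38.p14) with Python 3.11.15, numpy 2.4.6, pandas 2.3.3 and scipy 1.17.1. Strand, starts and promoter sequences came from the RefSeq promoter table, which held 34 of the 38 members, not ATG4D, MAP1LC3A, RB1CC1 and UVRAG. For those 4, ends are called lower and upper. Reads at a summit were recovered from the fold and −log10 p under a Poisson model, with a largest distance from a whole number of 0.0314. The gene assignment and the recovery of reads were tested on simulated data.

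Every member is named, by role, with its peaks or its nearest summit. The members and the rule of 1 kb were chosen with earlier results of these data known. So were the lists of further autophagy genes, AMPK and mTOR pathway genes and tissue markers. Counts are set beside the share of all protein-coding genes called by the same rule. Nothing was tested between conditions, because each group has 1 list. Alternatives were windows of 500 and 2500 bp, any base of a peak in place of its summit, lists of equal length, a −log10 q of at least 3, the nearest gene alone, starts alone, and overlap of peaks by 1 base or by 50% of both.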

Additional observations from a re-analysis of the deposited data

How the results depend on the processing

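No paired analysis was possible because each group has 1 deposited list for its 2 replicates, and leaving out a replicate could not be run for the same reason. The counts of members with a boundary peak followed the window. With 500 bp HDGF was at 4 members in control cells (10.5%, against 10.6% of all genes) and 4 in starvation (10.5%, against 13.4%) and INTS13 at 6 after HDGF depletion (15.8%, against 11.8%), so the excess of HDGF in control cells was not seen. With 2500 bp HDGF in starvation was at 14 (36.8%, against 31.2%) and INTS13 at 4 in control cells (10.5%, against 7.44%) and 4 in starvation (10.5%, against 8.48%). With lists of equal length HDGF was at 1 in control cells and 3 in starvation, and INTS13 at 1 in control cells and 3 after HDGF depletion, against 3.82%, 7.68%, 2.79% and 4.59% of all genes. Keeping peaks whose −log10 q reached 3, HDGF in control cells was at 5, INTS13 in control cells at 1 and INTS13 after HDGF depletion at 4, against 9.43%, 3.36% and 9.28%. With starts alone HDGF was at 7 and 3 of 34, against 12.6% and 15.4%. Members with HDGF in both conditions, 5 as reported, were 1 at 500 bp, 12 at 2500 bp, 1 with equal lengths, 1 with the q limit, 3 with the nearest gene alone, 1 with starts alone, and 2 by overlap of 1 base and 2 by overlap of 50%. Members with INTS13 both in control and after HDGF depletion, 2 as reported, were 4 at 2500 bp, 1 with equal lengths and 1 with the q limit. Those with INTS13 in both control and starved cells, 0 as reported, were 1 at 2500 bp (SQSTM1). Members with both proteins in control cells, 2 as reported, were 0 at 500 bp, 4 at 2500 bp, 0 with equal lengths, 0 with the q limit, 0 with starts alone and 0 by either overlap. In starvation, 1 as reported, they were 3 at 2500 bp, 2 with any base of the peak and 0 by either overlap. The cause was not tested, apart from the windows and limits holding more or fewer peaks by construction. The fold of the strongest boundary peak was equal in 15 of 18 pairs of gene and list that had a value at 500 bp and in 29 of 35 at 2500 bp. Equal folds follow by construction where the window returns the same deposited peak, so they do not measure stability. The others are different peaks, with folds within the counting interval of the reported one. The widest were ATG4A with HDGF in control cells at 500 bp (2.99 to 2.34) and ATG4C with HDGF in control cells at 2500 bp (2.86 to 3.77). The lists give no depth, and the weakest summits of 12 to 40 reads set what could be seen.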
